A study of Mus musculus with 6 samples.

Results

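Mitochondrial carriers are the proteins of the solute carrier family 25 and the uncoupling proteins, and their genes were taken as the protein-coding genes of GENCODE (release M21, GRCm38) with the symbol Slc25a followed by a number or the symbols Ucp1, Ucp2 and Ucp3. This rule gave 50 of 21853 protein-coding genes, 47 Slc25a genes and 3 Ucp genes. H3K27ac, acetylation of lysine 27 of histone H3, which is typical of promoters and enhancers in use, was measured by ChIP-seq in E14 mouse embryonic stem cells (mESCs; E14Tg2A Rosa26-Cre Oct4-IRES-Puro) kept in N2B27 medium with LIF, PD0325901 and CT-99021. The series has 2 replicates each of control cells (DMSO), of cells given NVP-2 (100 nM for 2 h), an inhibitor of the kinase CDK9, and of cells given actinomycin D (ActD, 800 nM for 2 h), which binds DNA and blocks RNA polymerases. Chromatin of human HEK293 cells had been added to all of them as a spike-in. A list of peak positions for control cells, in which the authors pooled both replicates, gave the values below. Each peak has a chromosome, a start and an end in mm10 and no height, so no value has a replicate error, the depth of the libraries cannot be read from the list, and the treated cells were not analysed here. All cells are of a single line, and 5 of 5 pluripotency genes looked up (Pou5f1, Nanog, Sox2, Zfp42 and Tfcp2l1) and 0 of 4 genes of other tissues (Alb, Myod1, Neurod1 and Gata1) had a peak at their promoter.

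Carriers sit mostly in the inner mitochondrial membrane, are encoded in the nucleus and are imported through the TOM and TIM22 complexes. Most carry a small set of solutes between the cytosol and the matrix, such as ADP and ATP, phosphate, citrate, amino acids, coenzymes or iron. The uncoupling protein UCP1 instead lets protons back into the matrix and so makes heat in brown fat. Several carriers have paralogs that are known for different tissues, so that the same transport step can be served by different genes in heart, testis, liver or stem cells.

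A promoter was taken as the stretch of 1 kb on each side of the transcription start site (TSS) used by the isoform that spans most of the genome, and it was called marked when a control peak overlapped it by at least 1 bp. H3K27ac was detected at 34 of the 50 carrier promoters, or 68.0% (95% Wilson interval 54.2 to 79.2%). The share among all protein-coding promoters was 48.8%, below the lower end of that interval. The intervals count genes and cover counting error only. Among 287 other Slc genes, most of them transporters of the plasma membrane and of other organelles, 44.6% were marked (39.0 to 50.4%). Oxidative phosphorylation subunits, the proteins of the respiratory chain and of ATP synthase, had a marked promoter for 79 of 86 genes, or 91.9% (84.1 to 96.0%). The share of the carriers lay between these values, and the intervals did not overlap. Among genes with no other TSS within 2 kb, the carriers (65.0%, 49.5 to 77.9%) and the oxidative phosphorylation subunits (86.5%, 74.7 to 93.3%) had intervals that did overlap. No test of these differences was made.

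**Figure D1:**
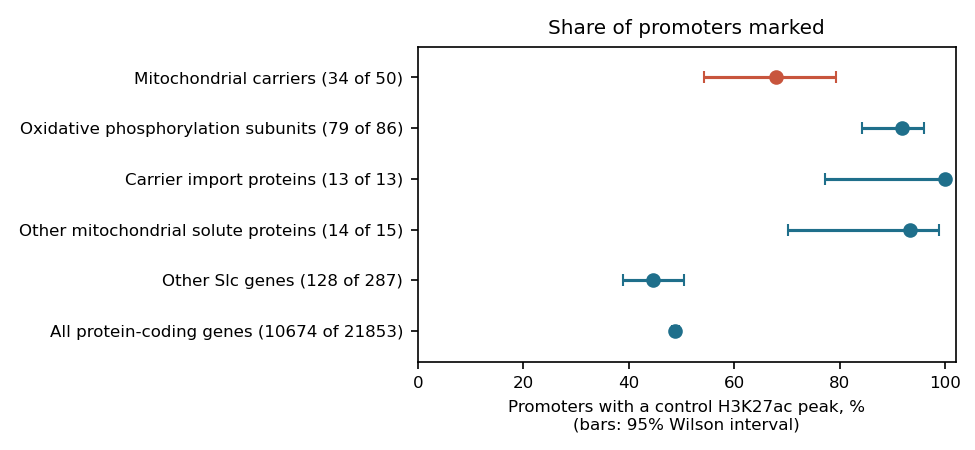
Share of promoters with a control H3K27ac peak within 1 kb of the TSS, in percent, for each list of genes (points, with 95% Wilson intervals as bars). The carriers, at 68.0%, lie above all protein-coding genes (48.8%) and below the oxidative phosphorylation subunits (91.9%).

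Promoters of proteins that bring carriers into the membrane were all marked. These were 13 of 13 genes of the import route (77.2 to 100%), against 48.8% of all protein-coding promoters. Among them were Timm22, the channel that inserts carriers, its small chaperones Timm9 and Timm10, and the receptor Tomm70a. Timm22, with a peak of 980 bp, was unmarked when only peaks at least 1 kb wide were used, which left 12 of 13. Of 15 other proteins for solutes in mitochondria, 14 were marked (70.2 to 98.8%). They included both subunits of the pyruvate carrier (Mpc1 and Mpc2), the calcium channel Mcu and all of Sfxn1 to Sfxn5. The exception was Vdac2, an outer membrane channel, whose nearest peak lay 5320 bp from the TSS of its longest isoform and which was marked at another isoform. Mcu, with a peak of 876 bp, also lost its mark without peaks under 1 kb, which left 13 of 15. The intervals of both lists overlapped that of the carriers, 54.2 to 79.2%.

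The ADP/ATP carriers, which bring ADP into the matrix and ATP out of it, and the uncoupling proteins show how marked and unmarked paralogs differed. Slc25a4 (ENSMUSG00000031633.4, known from heart and muscle) and Slc25a5 (ENSMUSG00000016319.3, known from dividing cells) were marked, and Slc25a31 (ENSMUSG00000069041.8, known from the germ line of the testis) was not. Ucp2 (ENSMUSG00000033685.13, which is widely expressed) was marked, and Ucp1 (ENSMUSG00000031710.4, brown fat) and Ucp3 (ENSMUSG00000032942.14, muscle) were not. The 200 bases just before the first annotated base of each of these genes are shown, from 5′ to 3′ on the strand of the gene (GRCm38), and have no annotated exon. Their CpG counts, given below, overlapped between marked and unmarked genes. Capitals mark CpG dinucleotides, the sites of DNA methylation, which are frequent in CpG islands.
Slc25a4, marked, chr8:46211285-46211484, minus strand: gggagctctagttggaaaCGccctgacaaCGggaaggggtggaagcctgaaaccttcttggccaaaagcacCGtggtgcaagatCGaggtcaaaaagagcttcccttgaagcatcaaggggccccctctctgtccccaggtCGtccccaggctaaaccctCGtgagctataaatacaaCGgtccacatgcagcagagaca
Slc25a5, marked, chrX:36795451-36795650, plus strand: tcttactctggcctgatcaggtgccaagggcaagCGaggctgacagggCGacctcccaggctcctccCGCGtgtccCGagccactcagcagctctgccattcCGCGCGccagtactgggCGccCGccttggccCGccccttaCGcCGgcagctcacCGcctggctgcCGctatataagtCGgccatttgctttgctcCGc
Slc25a31, unmarked, chr3:40708655-40708854, plus strand: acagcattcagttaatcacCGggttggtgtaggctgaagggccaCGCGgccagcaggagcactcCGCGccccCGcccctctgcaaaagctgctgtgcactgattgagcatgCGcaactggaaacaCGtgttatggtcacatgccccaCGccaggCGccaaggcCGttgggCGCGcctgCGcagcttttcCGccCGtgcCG
Ucp1, unmarked, chr8:83290152-83290351, plus strand: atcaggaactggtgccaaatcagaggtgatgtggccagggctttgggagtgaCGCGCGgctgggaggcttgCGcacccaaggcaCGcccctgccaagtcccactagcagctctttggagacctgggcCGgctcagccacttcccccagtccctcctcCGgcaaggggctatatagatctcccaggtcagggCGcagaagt
Ucp2, marked, chr7:100493137-100493336, plus strand: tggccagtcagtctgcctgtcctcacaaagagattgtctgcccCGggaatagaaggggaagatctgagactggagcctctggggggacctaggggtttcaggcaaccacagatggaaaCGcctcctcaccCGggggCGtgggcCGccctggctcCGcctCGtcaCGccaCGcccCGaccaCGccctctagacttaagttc
Ucp3, unmarked, chr7:100472790-100472989, plus strand: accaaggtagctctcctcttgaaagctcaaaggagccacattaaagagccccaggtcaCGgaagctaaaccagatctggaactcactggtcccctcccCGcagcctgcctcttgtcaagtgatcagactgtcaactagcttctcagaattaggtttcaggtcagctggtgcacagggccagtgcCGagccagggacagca

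Slc25a31 and Slc25a5 each had 17 CpG dinucleotides in these 200 bases, and only the latter was marked. Slc25a4 had 7 and was marked. Between the neighbours Ucp2 and Ucp3, whose TSSs lie 20.3 kb apart on the same strand, the counts were 11 and 3, and the marked gene was the one with more. Ucp1 had 8 and was unmarked. The counts of the marked members, 7 to 17, and of the unmarked ones, 3 to 17, overlapped.

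Peaks within 2 kb of each other had been merged by the authors, so a wide peak can include gaps between called peaks. The peak over Slc25a5 was among the widest at any carrier. It spanned 25177 bp, from 36794457 to 36819633 on the X chromosome, began 1194 bp upstream of the TSS, covered the whole gene of 3157 bp and ran on to 23982 bp downstream of the TSS. The peak at Slc25a4 spanned 1974 bp, from 826 bp upstream to 1147 bp downstream, and covered 25.6% of the gene. Around Slc25a31, by contrast, the nearest peak lay 90.5 kb downstream at the promoter of Plk4, and no peak lay in a stretch of 343 kb that holds the TSSs of Intu, Slc25a31 and Hspa4l. The peak of Ucp2 spanned 10946 bp from 100492673 to 100503618 on chromosome 7 and covered the whole gene. No peak lay in Ucp3, and the nearest one lay 17.6 kb upstream of its TSS, within the gene C2cd3. For Ucp1 the nearest peak lay 29.3 kb upstream, within Tbc1d9. The 3 homologs of the uncoupling proteins that are known from brain or kidney, Slc25a14, Slc25a27 and Slc25a30, were all marked, by peaks of 1918, 1404 and 1571 bp. The interval of their share, 43.9 to 100%, holds the 48.8% of all protein-coding promoters.

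Of the carriers of coenzymes and cofactors, 7 of 7 promoters were marked (64.6 to 100%), an interval that holds the 68.0% of all carriers. Of all protein-coding promoters 48.8% were marked, and groups of so few genes cannot be ranked. Among them were Slc25a16 and Slc25a42, linked to coenzyme A, Slc25a26 for S-adenosylmethionine, Slc25a32 for folate and Slc25a51 for NAD. Their peaks ranged from 871 bp at Slc25a26, the narrowest at any carrier, to 5766 bp at Slc25a42. Slc25a26 lost its mark when only peaks at least 1 kb wide were used, which left 6 of 7. Both carriers of pyrimidine nucleotides were marked as well, Slc25a36 by the widest peak of all carriers, 27301 bp from 97097464 to 97124764 on chromosome 9, and Slc25a33 by a peak of 9655 bp. Slc25a39 and Slc25a40, the carriers linked to glutathione, had peaks of 6743 and 7926 bp. The carnitine/acylcarnitine carrier Slc25a20, which brings fatty acids in for oxidation, had a peak of 24385 bp, of which 22811 bp lay upstream of its TSS and which also marked the promoter of Arih2.

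Of the carriers of phosphate and of di- and tricarboxylates, 4 of 5 were marked (37.6 to 96.4%). This interval holds the 48.8% of all protein-coding promoters. Slc25a1, which exports the citrate that is split into acetyl-CoA in the cytosol, lay wholly inside a peak of 11162 bp, from 4187 bp upstream to 6974 bp downstream of its TSS. The phosphate carrier Slc25a3 had a peak of 10753 bp that covered 92.3% of the gene, whereas the peaks at the dicarboxylate carrier Slc25a10 and the oxoglutarate carrier Slc25a11 spanned 3182 and 2909 bp. The exception was the oxodicarboxylate carrier Slc25a21, the longest of all carrier genes with 484839 bp, whose nearest peak lay 14.1 kb upstream and which held a single intronic peak of 833 bp, 98.4 kb into the gene.

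Amino acid carriers were marked in part. Of the aspartate/glutamate and glutamate carriers 3 of 4 were marked (30.1 to 95.4%). Of the ornithine, basic and other amino acid carriers 3 of 5 were marked (23.1 to 88.2%). Both intervals hold the 48.8% of all protein-coding promoters. The aspartate/glutamate carriers Slc25a12 and Slc25a13, which serve the malate-aspartate shuttle and the urea cycle, were both marked, by peaks of 3381 and 1811 bp. Of the glutamate carriers, Slc25a22 was marked and Slc25a18 was not, with its nearest peak 44.0 kb away at the promoter of Atp6v1e1. Of the ornithine carriers, Slc25a15 had a peak of 1823 bp, and Slc25a2, which has a single annotated coding isoform, had none, although a peak at the promoter of Taf7 began 2599 bp upstream of its TSS. The glycine carrier Slc25a38, needed for haem synthesis, and the branched-chain amino acid carrier Slc25a44 were marked, and Slc25a29, for basic amino acids, was not. Slc25a22 was the marked member whose peak lay furthest from the TSS, and Slc25a2 the unmarked member with the nearest peak. The peak at Slc25a22 began 232 bp downstream of the TSS, so that this was the only marked carrier with its TSS outside a peak. The TSS lay inside a peak at 33 of 50 carriers, against 44.2% of all protein-coding genes.

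Of the ATP-Mg/phosphate carriers, which adjust the adenine nucleotide pool of the matrix, 1 of 4 was marked (4.56 to 69.9%), an interval that holds the 48.8% of all protein-coding promoters. Slc25a25 was marked and Slc25a23, Slc25a24 and Slc25a41 were not. Slc25a25 was marked at only 3 of its 8 coding isoforms. The peak of 4778 bp lay at the 2 most upstream TSSs, next to the gene Naif1, a separate peak of 961 bp lay at a TSS 27.4 kb downstream, the 4 TSSs between 20326 and 20693 bp downstream were 6703 to 7070 bp from any peak, and the last TSS, 29465 bp downstream, was 1109 bp from one. With the isoform of longest spliced length Slc25a25 was unmarked. Slc25a23 shares a promoter region with Crb3, and neither was marked. The nearest peak to Slc25a24 lay 201 kb away, in a stretch of 411 kb without peaks that also holds Slc25a54. Of the 8 carriers placed in none of the substrate groups, 3 were marked (Slc25a43, Slc25a45 and Slc25a53) and 5 were not (Slc25a34, Slc25a35, Slc25a47, Slc25a48 and Slc25a54). The interval of this share, 13.7 to 69.4%, also holds the 48.8% of all protein-coding promoters. Slc25a46, a protein of the outer membrane with a part in mitochondrial fission and fusion, was marked by a narrow peak of 1006 bp.

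The mitoferrins, which bring iron into the matrix, were Slc25a28, marked by a peak of 2829 bp, and Slc25a37 (ENSMUSG00000034248.7), unmarked. The call for Slc25a37 has a limit that no other carrier had. Its whole promoter window of 2001 bp occurs a second time on chromosome 14 of GRCm38, from 69502362 to 69504362, with 100% identity. Of the 50 windows searched, this was the only one with a match elsewhere of at least 100 bp at 98% identity or more. According to the methods, reads of low mapping quality were removed, and reads from identical copies have no unique place. The part of this in the missing peak was not tested. The nearest peak lay 422 kb away, and the stretch without a peak ran for 1.58 Mb from 68124647 to 69706695 and held 14 coding TSSs. Stretches of at least 1 Mb without a peak held 12.1% of all protein-coding TSSs and 23.7% of the unmarked ones. Without Slc25a37, 34 of 49 carriers were marked, or 69.4%.

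**Figure D2:**
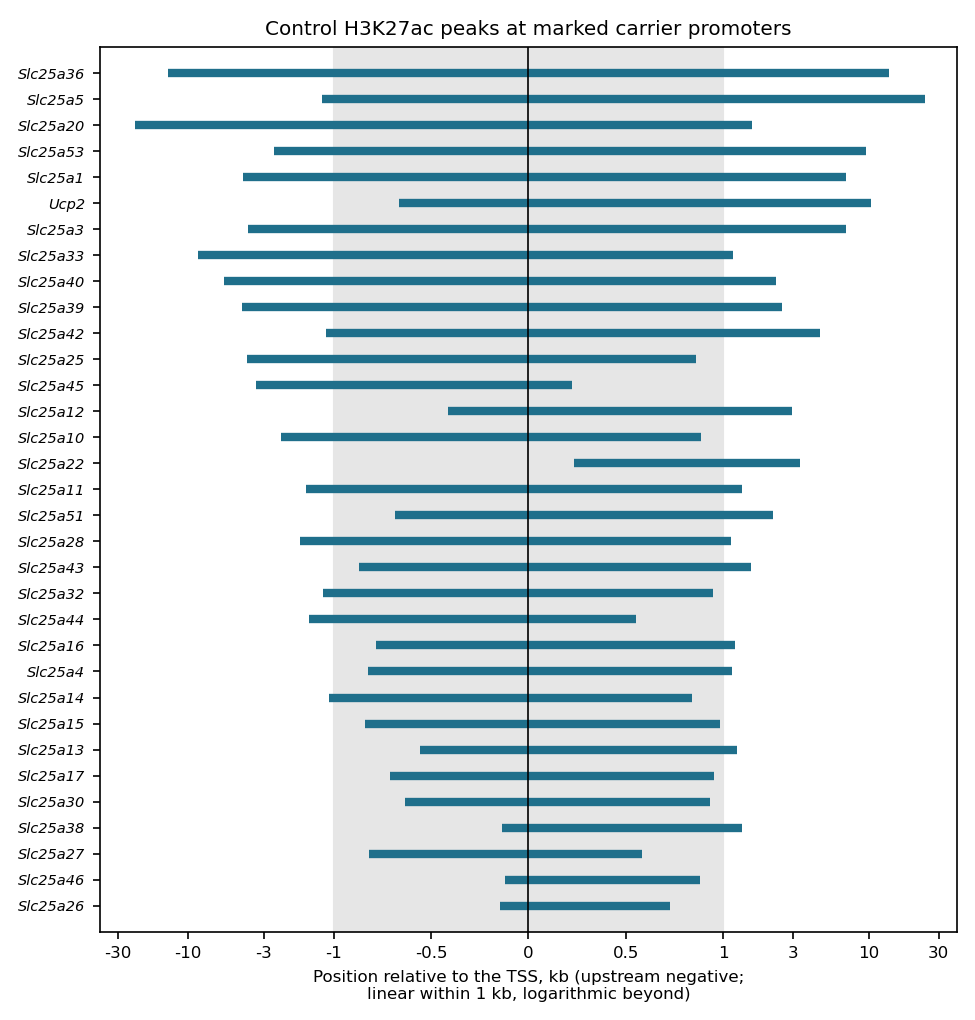
Extent of the control H3K27ac peak (bar) at 33 of the 34 marked carrier promoters, in kb from the TSS, upstream to the left, on a scale that is linear within 1 kb (grey band) and logarithmic beyond, sorted by width. The TSS lies inside the peak for all but Slc25a22, and widths run from 871 bp (Slc25a26) to 27301 bp (Slc25a36).

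Peaks at marked carriers had a median width of 3025.5 bp, with quartiles at 1932 and 7630 bp. The order-statistic 95% interval of this median ran from 1993 to 5766 bp and held the median of 2174 bp over all marked protein-coding promoters. Peaks of at least 10 kb lay at 7 of the 34, or 20.6% (10.3 to 36.8%), against 10.8% of all marked protein-coding promoters. These were Slc25a36, Slc25a5, Slc25a20, Slc25a53, Slc25a1, Ucp2 and Slc25a3. The 5 narrowest were those of Slc25a26, Slc25a46, Slc25a27, Slc25a38 and Slc25a30, from 871 to 1571 bp. Peaks reached further downstream than upstream of the TSS at 20 of 34 carriers, or 58.8% (42.2 to 73.6%), and at 67.6% of all marked protein-coding promoters. Slc25a20 reached furthest upstream, and Slc25a45 had the largest ratio of upstream to downstream reach, with 3380 bp upstream, where the promoter of Frmd8 lies, and 223 bp downstream.

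At 12 of the 34 marked carriers, or 35.3% (21.5 to 52.1%), the peak also overlapped the promoter of another protein-coding or lincRNA gene, against 29.3% of all marked protein-coding promoters. Among these were Rnf167 at Slc25a11, Dcaf13 at Slc25a32, Cyp39a1 at Slc25a27 and Dbf4, which encodes a regulator of replication origins, at Slc25a40. The others were Mdrl at Slc25a5, Gm16755 at Slc25a10, 1810012K16Rik at Slc25a15, Gm13073 and Gm16188 at Slc25a33 and B930094E09Rik at Slc25a46, besides Arih2, Naif1 and Frmd8, which are named with their carriers. For these the list does not tell which of the genes the acetylation belongs to. Another TSS lay within 2 kb of 10 carriers, of which 8 were marked, close to the 79.3% of all protein-coding promoters with such a neighbour. Of the 5 pairs of carriers whose TSSs lie less than 100 kb apart, 4 had both or neither gene marked, or 80.0% (37.6 to 96.4%), against 67.0% of all such pairs of protein-coding genes. Slc25a5 and Slc25a43, 52.0 kb apart on the X chromosome, were both marked. Slc25a23 and Slc25a41, Slc25a24 and Slc25a54, and Slc25a29 and Slc25a47 were all unmarked, and Ucp2 and Ucp3 differed.

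All 4 X-linked carriers were marked, Slc25a5, Slc25a14, Slc25a43 and Slc25a53, whereas the share among X-linked protein-coding genes was 30.5%. With only 4 genes the Wilson interval reaches down to 51.0%. Slc25a53 was marked at 2 of its 5 coding isoforms, which start within 22 bp of each other inside a peak of 12128 bp, and the 3 others start 45211 to 45268 bp downstream and were 35631 to 35688 bp from any peak. In all, 6 of the 34 marked carriers had at least 1 coding isoform with no peak within 1 kb of its TSS. The same share was not computed over all protein-coding genes, so this count cannot be called high or low. Counting any isoform added no carrier to the 34, while the share of all protein-coding genes was then 51.0%.

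The CpG content of marked and unmarked carriers overlapped. The CpG ratio, the number of CpG dinucleotides over the number that the C and G content of the window would give, had a median of 0.634 at marked carriers (quartiles 0.487 and 0.735, n = 34) and of 0.419 at unmarked ones (0.212 and 0.597, n = 16). The difference of 0.215 lay within wide bounds, from -0.0875 to 0.513, set by the 95% intervals of both medians. The median over all unmarked protein-coding promoters, 0.227, lay inside the order-statistic interval of the unmarked carriers, 0.208 to 0.606. At CpG ratios of at least 0.6, 19 of 23 carriers were marked, or 82.6% (62.9 to 93.0%), close to the 83.6% of all protein-coding promoters with such a ratio. Below 0.6, 15 of 27 carriers were marked, or 55.6% (37.3 to 72.4%). Of all protein-coding promoters in that range 30.4% were marked, below the lower end of this interval, and the difference was not tested. The intervals of the carriers in both CpG classes overlapped each other. The unmarked Slc25a23, Slc25a29 and Slc25a37 had ratios of 0.654, 0.677 and 0.675, above the median of the marked carriers. Among the marked, Slc25a45 (0.284) and Slc25a22 (0.408) lay below the median of the unmarked. The highest ratio was that of Slc25a40, 0.908.

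**Figure D3:**
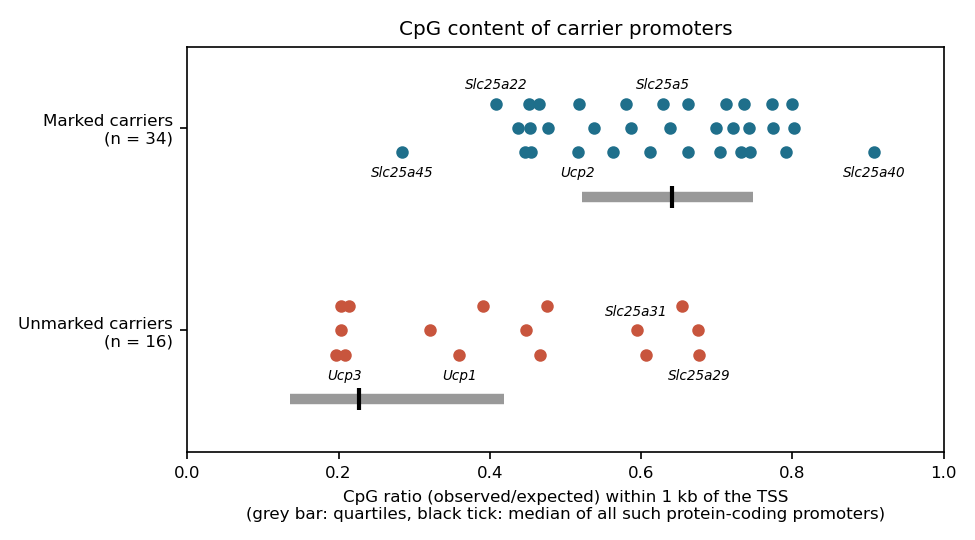
CpG ratio of the window of 1 kb on each side of the TSS for each marked (34) and unmarked (16) carrier promoter (points, offset vertically only to keep them apart), with the quartiles (grey bar) and median (black tick) of all marked or unmarked protein-coding promoters. Marked carriers have a median of 0.634 and unmarked carriers one of 0.419, with overlap between them.

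Short sequence motifs were looked up on both strands of the stretch from 250 bases before to 50 after the TSS, with overlapping matches allowed. A match describes letters and not the binding of a factor. The GC box GGGCGG was present at 27 of 34 marked and 7 of 16 unmarked carriers, and at 66.3% of marked and 24.6% of unmarked protein-coding promoters. Over all protein-coding promoters the shares were 45.0% for this motif, 18.1% for CCGGAA, 9.96% for TGCGCA, 10.7% for ATGGCG, 38.7% for CCAAT and 12.4% for TATAAA. The ETS core CCGGAA was present at 12 of 34 and 2 of 16, against 29.9% and 6.78%. The NRF1 core TGCGCA, part of the motif of a factor known for genes of mitochondrial proteins, was present at 3 of 34 and 3 of 16, and at 14.9% of marked and 5.23% of unmarked protein-coding promoters. Slc25a31 had it at 2 places, 91 and 24 bases before the TSS (counted to the first base of the match), although its promoter was unmarked. The YY1 core ATGGCG was present at 4 of 34 and 0 of 16 (16.3% and 5.30%), and CCAAT at 14 of 34 and 8 of 16 (38.8% and 38.7%). TATAAA was present at 1 carrier, the marked Slc25a4, and at 6.43% of marked and 18.2% of unmarked protein-coding promoters. It begins 33 bases before the TSS, and in the sequence above it lies just before the last CpG.

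For the unmarked carriers, the median distance from the TSS to the nearest peak was 23.4 kb (quartiles 7.54 and 55.6 kb, n = 16), against 60.3 kb over all unmarked protein-coding promoters, a value inside the order-statistic interval of 4.77 to 90.5 kb. A peak lay within 10 kb at 5 of the 16 carriers, or 31.2% (14.2 to 55.6%), against 15.1% of all unmarked protein-coding promoters. These were Slc25a2, Slc25a34, Slc25a35, Slc25a48 and Slc25a41. At 10 of the 16, or 62.5% (38.6 to 81.5%), the nearest peak at any distance marked the promoter of another gene, against 47.4% of all unmarked protein-coding promoters, a share inside that interval. Examples were Tmem82 for Slc25a34 (4291 bp), Rangrf for Slc25a35 (4753 bp), Khsrp for Slc25a41 (8469 bp) and Yy1 for Slc25a29 (37.1 kb). The nearest peak to Slc25a47, which is known from liver, lay 41.9 kb away at the promoters of Wars and Wdr25. For Slc25a48 it lay 4767 bp upstream in the gene Gm3045, and for Slc25a23 it lay 10.4 kb upstream in Dennd1c.

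**Figure D4:**
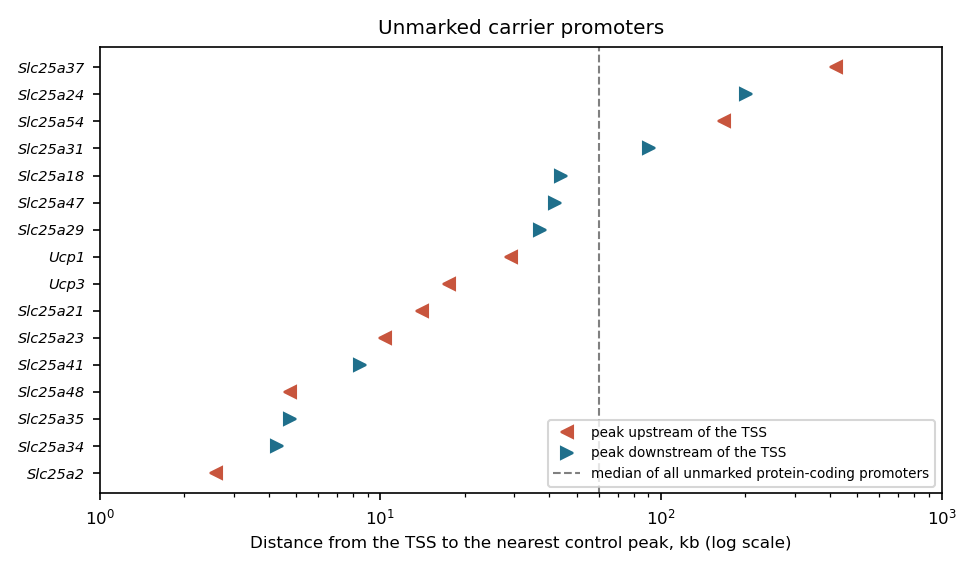
Distance from the TSS to the nearest control H3K27ac peak, in kb on a log scale, for the 16 unmarked carriers (triangles point to the side of the TSS on which the peak lies). Distances run from 2.60 kb (Slc25a2) to 422 kb (Slc25a37), and the dashed line is the median of all unmarked protein-coding promoters, 60.3 kb.

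Peaks that overlapped the gene but not its promoter window were found in 15 of 50 carriers, or 30.0% (19.1 to 43.8%), against 21.9% of all protein-coding genes. They numbered 20. Slc25a13, a gene of 175956 bp, had the most, with 4 intronic peaks of 21490, 5999, 1718 and 16513 bp, so that peaks covered 26.7% of the gene although its promoter peak spanned only 1811 bp. Its paralog Slc25a12 had 2, of which the wider, 11332 bp, began 9.54 kb downstream of the TSS in an intron. An intronic peak of 9043 bp lay in Slc25a43, and 1 of 11101 bp at the end of Slc25a44 reached the promoter of Pmf1. Several others lay at promoters of neighbouring genes, such as that of Dna2 at the end of Slc25a16. Longer genes have more room for a peak, and the part of gene length in this share was not tested.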

How the data were processed

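H3K27ac ChIP-seq had been done on control, NVP-2 and ActD cells (2 replicates each). According to the methods, the authors trimmed reads with Cutadapt, aligned them with bwa meme to mm10 together with a human genome, removed duplicates (Picard 2.9.1) and poorly mapped reads (samtools 1.4), called peaks with LanceOtron, merged peaks within 2 kb and filtered them by height and by distance to ATAC-seq summits. The deposited list gives 22973 peak positions in base pairs for control cells, pooled over replicates. A promoter without a listed peak may have failed a filter.

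From it, overlaps, distances and widths were computed against GENCODE M21 (the methods name another release) and GRCm38.p6 sequence, with 95% Wilson intervals for shares and order-statistic intervals for medians. No test was made over genes. Copies of promoter windows were searched with minimap2 2.31. Python 3.11.15, numpy 2.4.6, scipy 1.17.1, pysam 0.24.0 and matplotlib 3.10.9 were used, and the functions were tested on simulated peaks.

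Members and lists were chosen with earlier results of these data known. All unmarked carriers, the 5 widest and 5 narrowest peaks, carriers whose call changed and sets of paralogs were to be named, with neighbours that share a peak or promoter. Others were chosen after their values were seen. For 1 marked carrier, values are not reported here.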

Additional observations from a re-analysis of the deposited data

How the results depend on the processing

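The share of marked carriers, 68.0%, stayed between 65.0 and 68.0% under 8 alternatives: windows of 500 bp or 2 kb, the TSS itself inside a peak, any isoform, the isoform with the longest spliced length, only peaks of 1 kb or more, 500 bp or more of overlap, and genes with no other TSS within 2 kb. Without Slc25a37, an alternative chosen after seeing the data, it was 69.4%. Of 390 calls for single carriers, 3 changed, all from marked to unmarked: Slc25a22 with the TSS itself, Slc25a25 with the isoform of longest spliced length and Slc25a26 with peaks at least 1 kb wide. The median width stayed between 2909 and 3162 bp. The difference in CpG ratio, 0.215, stayed positive, from 0.142 over the stretch from 250 bases before to 50 after the TSS to 0.243 without Slc25a37, and in GC content it was 1.02 percentage points.

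The share of all protein-coding promoters, 48.8%, moved beyond its narrow interval to 49.9% for 2 kb windows, 44.2% for the TSS itself, 51.0% with any isoform, 43.7% with peaks at least 1 kb wide, 47.4% with the larger overlap and 43.1% without close TSSs. That of oxidative phosphorylation subunits ran from 86.5% (no close TSS) to 94.2% (2 kb windows). That of other Slc genes was 38.0% with the TSS itself, and that of other mitochondrial solute proteins was 100% with any isoform or by spliced length, through Vdac2. A narrower or wider rule lowers or raises a share by construction, and for genes without close TSSs the cause was not tested. No paired analysis was possible because the list pools both control replicates, and for the same reason no replicate could be left out.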
